A study of Mus musculus with 15 samples.

Results

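The let-7 family was followed in the small RNA of mouse foetal testes at the foetal stage E16.5, with and without TEX15, a protein of the male germline that acts with the nuclear piRNA pathway. Members were every mature microRNA name that contains let-7, together with both arms of miR-98, which differs from let-7a by 2 bases and carries the same seed. The rule found 23 of the 1305 mature microRNA names in the deposited tables: 9 names of the 5p arm, 12 of the 3p arm, and let-7j and let-7k, which are listed without an arm. The names were chosen by their spelling and not by a cut-off on a measured value, but with earlier results of these data known.

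Small RNA was sequenced from 3 control (Tex15+/-) and 3 Tex15-/- libraries, each made from 6 pooled foetal testes. Both genotypes come from the same line, in which every mutant allele descends from 1 founder carrying an insertion with stop codons in a coding exon, on a mixed B6CBAF1/Crl and C57BL/6N background, so the controls also carry 1 mutant allele. Whole testes hold germ cells together with Sertoli, Leydig, mesenchymal, endothelial and blood cells, and in such bulk samples fewer cells of a type cannot be told apart from less RNA per cell. Expression of Lin28b and other genes of the pathway was read in separate RNA-seq libraries of sorted E16.5 gonocytes, the foetal male germ cells, from 3 control (Tex15+/-) and 3 Tex15-/- samples that also carry a Miwi2 tdTomato reporter allele. The small RNA tables held between 5671330 and 34180789 mature microRNA reads per library, with control replicate 2 the deepest by far. Their number came to 41.1% to 50.7% of that of all reads of 18 to 32 nt. No pair of libraries held identical values. Over 444 names, the mean correlation of a library's log2 values with the others of its genotype was between 0.962 and 0.984. It was lowest in Tex15-/- replicate 2, which also stood apart in several let-7 values below. The mean correlation with the other genotype was between 0.957 and 0.976. It was higher than that with the own genotype in Tex15-/- replicates 1 (0.973 against 0.972) and 3 (0.976 against 0.970).

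let-7 was found as a gene that controls developmental timing in the worm and has many near-identical copies in mammals. A primary transcript is cut by the DROSHA and DGCR8 complex to a hairpin, the hairpin is cut by DICER1 to a duplex, and 1 arm, for let-7 nearly always the 5p arm, is kept in an Argonaute protein, where its seed pairs with target messages. The RNA-binding proteins LIN28A and LIN28B hold back maturation in stem cells and early germ cells: they bind the hairpin loop and recruit the terminal uridyltransferases TUT4 and TUT7, whose long U tail marks the hairpin for decay by DIS3L2. In the absence of LIN28 the same enzymes add a single U to most let-7 hairpins (group II), which helps DICER1, whereas a few hairpins (group I, let-7a-2, let-7c-1 and let-7e in the mouse) have an end that does not need it. Lin28a and Lin28b messages are themselves classical let-7 targets.

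The mature 5p sequences below are from RefSeq (GRCm38.p6) and are shown because the whole signal of the family rests on them. Capitals mark the seed, bases 2 to 8.
let-7a-5p: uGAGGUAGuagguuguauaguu
let-7b-5p: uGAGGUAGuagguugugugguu
let-7c-5p: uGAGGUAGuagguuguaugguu
let-7d-5p: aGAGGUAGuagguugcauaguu
let-7e-5p: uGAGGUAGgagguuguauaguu
let-7f-5p: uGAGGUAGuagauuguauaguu
let-7g-5p: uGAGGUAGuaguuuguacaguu
let-7i-5p: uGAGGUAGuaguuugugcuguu
miR-98-5p: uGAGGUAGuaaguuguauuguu

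All 9 shared the seed GAGGUAG, as did let-7k, so 10 of the 23 names carried it. Pairs of 5p members differed by 1 to 6 of 22 bases: let-7a from let-7c, let-7e and let-7f by 1 base each, let-7b from let-7c by 1, and let-7d from let-7i by 6. let-7j carried another seed, GAGGUAU, and differed from let-7i-5p by 1 of its first 22 bases. Its reads were between 0.00648% and 0.0136% of those of let-7i-5p in each library, so at this depth its reads cannot be told apart from misread let-7i.

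The 23 names were assigned to 14 hairpin genes, and most hairpins lie in host transcripts or clusters (GENCODE M21, GRCm38). Mirlet7d (chr13:48536012-48536114), Mirlet7f-1 (chr13:48537829-48537917) and Mirlet7a-1 (chr13:48538179-48538272) lie on the minus strand within exons of the long non-coding RNA 6720427I07Rik. Mirlet7c-2 (chr15:85706603-85706697) and Mirlet7b (chr15:85707319-85707403) lie on the plus strand in exons of the non-coding transcript Lncppara, with starts 716 bases apart. Mirlet7f-2 (chrX:151912346-151912428) and Mir98 (chrX:151913214-151913321) are both intronic in the ubiquitin ligase gene Huwe1. Mirlet7g (chr9:106178840-106178927) is intronic in Wdr82, Mirlet7e (chr17:17830352-17830444) is intronic in Spaca6, and Mirlet7i (chr10:122985640-122985724) overlaps an exon of the pseudogene transcript D630033A02Rik. Mirlet7c-1 (chr16:77599657-77599750) is intronic in Mir99ahg, next to the hairpin of miR-99a, and Mirlet7a-2 (chr9:41536716-41536811) is intronic in the non-coding transcript 3110039I08Rik, between miR-100 and miR-125b-1. let-7a-5p, let-7c-5p and let-7f-5p each come from more than 1 hairpin, so the mature reads do not show which locus made them.

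The family was among the most abundant microRNAs of the foetal testis. It held 12.2%, 14.9% and 15.2% of mature microRNA reads in the controls and 14.3%, 17.7% and 16.6% in Tex15-/- testes. The groups overlapped, and the means of 14.1% ± 1.65 (SD, n = 3) and 16.2% ± 1.74 (SD, n = 3) did not differ beyond the spread (p = 0.3, two-sided exact permutation test). With 3 libraries against 3, this test cannot give a p below 0.1. The difference of 2.12 percentage points was 1.17 without control replicate 1, 1.36 without Tex15-/- replicate 2, 3.07 without Tex15-/- replicate 1, where the groups no longer overlapped (p = 0.1, two-sided exact permutation test), and 0.278 with each distinct sequence counted once.

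By reads listed as mature, 10 of the 23 names (the 9 of the 5p arm and let-7d-3p) reached 100 RPM (reads per 1000000 mature microRNA reads) on average. The 13 others stayed at or under 27.8. let-7i-5p ranked 5 and let-7c-5p ranked 6 of all 1305 names by mean level, with 42867 and 41422 RPM. let-7f-5p (20201), let-7a-5p (18510) and let-7g-5p (11123) followed, then let-7e-5p (6888), let-7b-5p (5932), let-7d-5p (3611) and miR-98-5p (573), in RPM. This order held in all 3 controls at each step. Over all 6 libraries, let-7i was above let-7c in 4 and let-7f above let-7a in 4, so these neighbours did not keep their order, and let-7g was above let-7e in 5. The other steps held in 6 of 6. These levels were not corrected for ligation or amplification, and the reads carry no molecular identifiers.

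**Figure D1:**
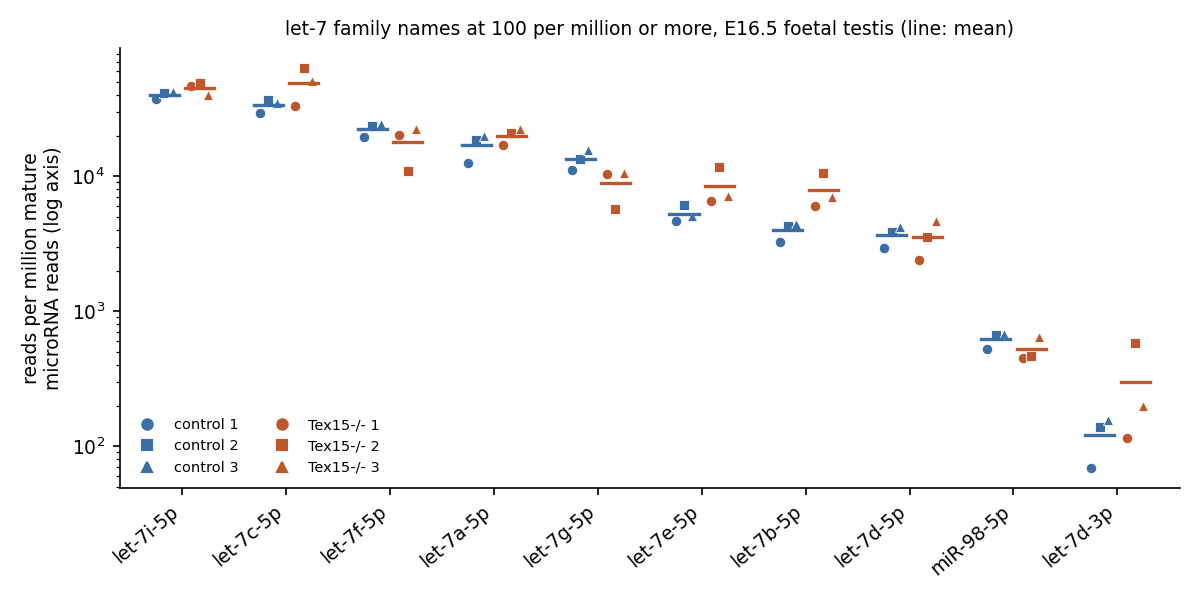
Level of each let-7 name with at least 100 RPM on average, 1 point per library and a line at the mean of each genotype, on a log axis. let-7i-5p and let-7c-5p have means of 42867 and 41422 over the 6 libraries and miR-98-5p of 573, and let-7b-5p and let-7e-5p are higher in all 3 Tex15-/- libraries than in any control.

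The comparison of genotypes asks whether loss of TEX15 changes the family as a whole or single members. Of the 580 names tested with edgeR's quasi-likelihood test, 0 (0%) passed an adjusted p of 0.01, and so did 0 of the 17 let-7 names tested. The 6 others were too low to be tested. At an unadjusted p of 0.05, 79 names (13.6%) and 5 of the 17 let-7 names passed. The normalised values of the genotypes did not overlap for 120 of the 580 names (20.7%) and for 5 of the 17 let-7 names. Without sequences that fit several let-7 names, they did not overlap for 119 of 578 names and for 4 of 15 let-7 names, and let-7a-5p was no longer among them. The median log2 fold change was 0.32 over the let-7 names and -0.01 over all names tested, with 12 let-7 names above 0 and 5 below. The let-7 median was 0.01 without a filter on low counts, 0.06 with a replicate block, 0.09 without control replicate 1 and 0.17 without TMM factors, and at most 0.37 under the other alternatives. With DESeq2, 10 of 580 names and 1 let-7 name, let-7b-5p, passed.

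let-7b-5p had 3244, 4247 and 4440 RPM in controls against 6049, 10536 and 7076 in Tex15-/- testes. Every Tex15-/- library lay above every control. Its log2 fold change was 1.14 (SE 0.25), with an adjusted p of 0.234 in edgeR and 0.00229 in DESeq2. Over the alternatives its adjusted p ranged from 0.00229 to 0.643, and its log2 fold change from 0.86, without Tex15-/- replicate 2, to 1.26. It is the member richest in G and C, with 45.5% of its bases.

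let-7e-5p had 4678, 6141 and 5084 RPM in controls against 6543, 11749 and 7131 in Tex15-/- testes, again without overlap. Its log2 fold change was 0.83 (SE 0.27, edgeR adjusted p = 0.358), and 0.50 without Tex15-/- replicate 2. For its own passenger arm the estimate was negative: let-7e-3p had 28.5, 33.9 and 32.3 RPM in controls against 20.3, 19.4 and 24.8 in Tex15-/- testes, a log2 fold change of -0.41 (SE 0.17, edgeR adjusted p = 0.364). That of let-7e-3p ranged from -0.56 to -0.23 over the alternatives.

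let-7c-5p had 29641, 36622 and 34786 RPM in controls against 33071, 63789 and 50626 in Tex15-/- testes. The groups overlapped on this scale but not after TMM scaling, which multiplied library sizes by factors between 0.913 and 1.09. Its log2 fold change was 0.69 (SE 0.24, edgeR adjusted p = 0.364), and 0.44 without Tex15-/- replicate 2.

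let-7i-5p and let-7a-5p differed less between genotypes. let-7i-5p had 37412, 41533 and 42248 RPM in controls against 46701, 48999 and 40308 in Tex15-/- testes, a log2 fold change of 0.32 (SE 0.16, edgeR adjusted p = 0.372). Over the alternatives it ranged from 0.17 to 0.42. let-7a-5p had 12569, 18602 and 19853 in controls against 16940, 20803 and 22293 in Tex15-/- testes, a log2 fold change of 0.38 (SE 0.20, edgeR adjusted p = 0.389) that was 0.20 without control replicate 1. In both, the groups overlapped in RPM. Those of let-7a-5p did not after TMM scaling, but they did once sequences shared with other let-7 names were left out, at 11923 to 18158 normalised CPM in controls against 16729 to 22376 in Tex15-/- testes.

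let-7f-5p and let-7g-5p lay lower in Tex15-/- replicate 2 than anywhere else. let-7f-5p had 19727, 23487 and 24543 RPM in controls against 20294, 10866 and 22287 in Tex15-/- testes (log2 fold change -0.20, SE 0.26, edgeR adjusted p = 0.737). Without Tex15-/- replicate 2 its log2 fold change turned to 0.05. let-7g-5p had 11048, 13363 and 15719 in controls against 10334, 5686 and 10590 in Tex15-/- testes, below every control, although the groups overlapped after TMM scaling (log2 fold change -0.44, SE 0.25, edgeR adjusted p = 0.412). Without Tex15-/- replicate 2 it was -0.21.

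let-7d-5p had 2943, 3864 and 4246 RPM in controls against 2410, 3530 and 4675 in Tex15-/- testes, with a log2 fold change of 0.08 (SE 0.24). miR-98-5p had 529, 663 and 680 in controls against 451, 467 and 646 in Tex15-/- testes, with a log2 fold change of -0.12 (SE 0.18) that ranged from -0.26, without Tex15-/- replicate 3, to -0.05, without control replicate 2. Both overlapped between genotypes, with edgeR adjusted p of 0.890 and 0.781. let-7d-3p was the only 3p name with at least 100 RPM in reads listed as mature. It had 69.1, 138 and 157 RPM in controls against 116, 577 and 198 in Tex15-/- testes, a spread of the Tex15-/- libraries wider than the difference (log2 fold change 1.45, SE 0.61, edgeR adjusted p = 0.365). Without Tex15-/- replicate 2 its log2 fold change was 0.49 (edgeR adjusted p = 0.755).

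**Figure D2:**
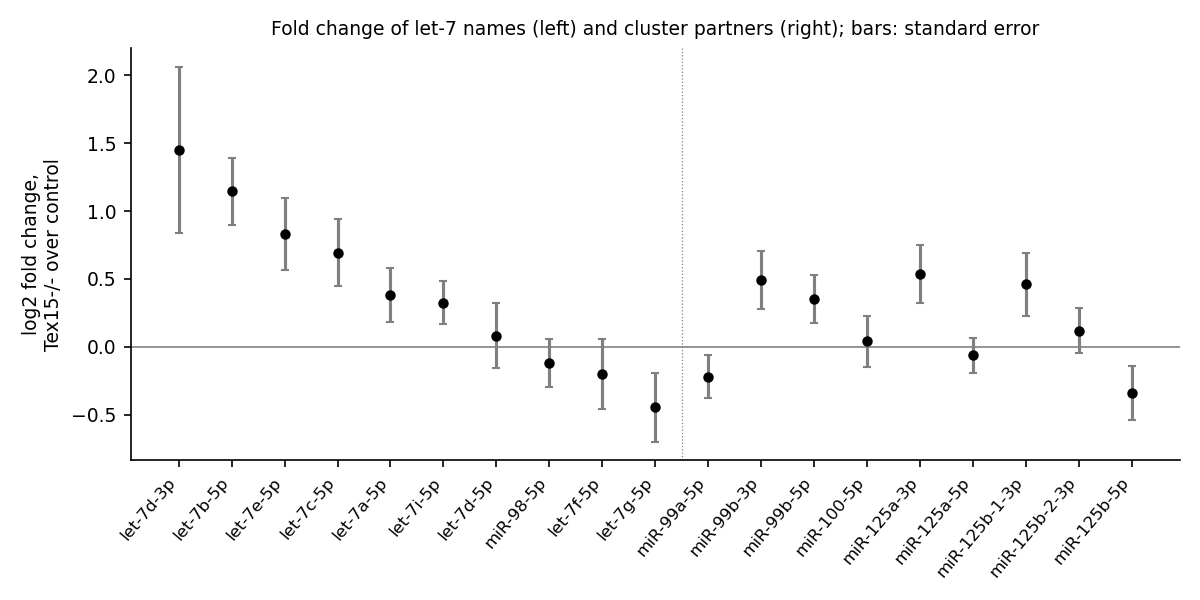
Log2 fold change of Tex15-/- over control testes from the edgeR fit over all mature names, with bars of 1 standard error, derived from the F statistic of the test. The 10 let-7 names with at least 100 RPM are on the left and 9 microRNAs from the same clusters on the right. The let-7 names run from 1.45 for let-7d-3p to -0.44 for let-7g-5p, and 0 of these names passed an adjusted p of 0.01.

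The base composition of the members moved with these differences. Across the 9 members of the 5p arm, the log2 fold change correlated with the share of G and C in the mature sequence (Pearson r = 0.79, Spearman rho = 0.77), and across the 159 other tested names with a mean normalised level of at least 100 CPM (counts per 1000000 reads, TMM-scaled) and a RefSeq mature sequence the same correlation was 0.38 (rho = 0.41). These are correlations across names that share the same 6 libraries and overlap in sequence, given as a description. The part of base composition in the differences between members was not tested.

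Within the family, the balance of members was compared as shares. Shares of the let-7 5p reads do not depend on the rest of the library. let-7b made up 2.66%, 2.86% and 2.93% in controls against 4.24%, 5.97% and 4.27% in Tex15-/- testes, and let-7e 3.84%, 4.14% and 3.35% against 4.58%, 6.66% and 4.31%. Both were higher in every Tex15-/- library than in any control.

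A further 3 members were lower in every Tex15-/- library. let-7f made up 16.2%, 15.8% and 16.2% of the 5p reads in controls against 14.2%, 6.16% and 13.5% in Tex15-/- testes. let-7g made up 9.07%, 8.997% and 10.4% against 7.24%, 3.22% and 6.39%, and miR-98 made up 0.434%, 0.446% and 0.449% against 0.316%, 0.264% and 0.390%. Each of these 5 members had p = 0.1 in the two-sided exact permutation test, the smallest it can give, and 0.18 after Benjamini-Hochberg adjustment over the 9 members. The shares add up to 100, so a rise of one member lowers the others. Without Tex15-/- replicate 2 the difference (Tex15-/- minus control) fell from 1.41 to 0.667 percentage points for let-7e and moved from -4.79 to -2.23 for let-7f. With each distinct sequence counted once, all 5 members overlapped between genotypes and let-7e turned to -1.09. That setting weighs every form alike whatever its reads, so it does not measure read shares. It gave miR-98 a control mean of 6.16%, against 0.443% by reads.

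The 4 remaining members overlapped between genotypes. let-7i held 27.9% to 30.7% of the 5p reads in controls against 24.3% to 32.7% in Tex15-/- testes. let-7c held 22.9% to 24.7% in controls, and 23.2%, 36.2% and 30.6% in Tex15-/- testes, so it was the leading member in 2 of the 3 mutant libraries and in 0 controls. Its difference of 5.98 percentage points was 2.88 without Tex15-/- replicate 2 and 9.38 without Tex15-/- replicate 1, where the groups no longer overlapped (p = 0.1, two-sided exact permutation test). let-7a held 10.3% to 13.1% in controls against 11.8% to 13.5% in Tex15-/- testes, and let-7d 2.42% to 2.80% and 1.69% to 2.82%. The SD of the let-7f share was 4.45 percentage points among Tex15-/- libraries and 0.219 among controls, and that of the let-7a share 0.943 and 1.47.

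**Figure D3:**
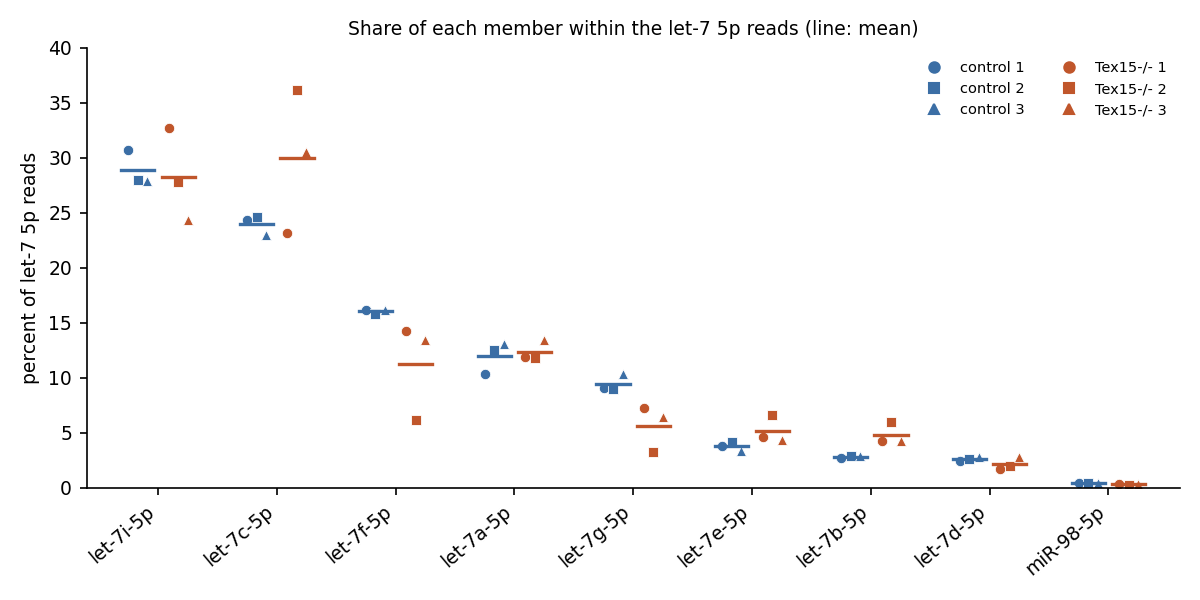
Share of each member within the let-7 5p reads, in percent, 1 point per library and a line at the mean. let-7b and let-7e lie higher and let-7f, let-7g and miR-98 lower in all 3 Tex15-/- libraries, and Tex15-/- replicate 2 is farthest from the controls for let-7c, let-7f and let-7g.

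Members of a cluster had estimates of either sign, and none passed in edgeR. let-7f-1, let-7d and let-7a-1 lie within one host transcript, and the log2 fold changes of the mature names were -0.20 (SE 0.26), 0.08 (SE 0.24) and 0.38 (SE 0.20). let-7b, beside let-7c-2, had 1.14 and let-7c-5p 0.69. The mature let-7f, let-7a and let-7c reads also come from hairpins outside these clusters. These values therefore do not show whether hairpins of one transcript differ. The partners that share clusters with let-7c-1, let-7e and let-7a-2 are miR-99a, miR-99b, miR-100, miR-125a and miR-125b, microRNAs with seeds of their own. Of their 11 mature names, 9 were tested and 0 passed.

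The most abundant partner was miR-99a-5p, from the let-7c-1 cluster, with 111028, 120313 and 119455 RPM in controls against 91935, 72589 and 108088 in Tex15-/- testes. Every Tex15-/- library was below every control in RPM, although the groups overlapped after TMM scaling, and the log2 fold change was -0.22 (SE 0.16, edgeR adjusted p = 0.513). miR-125b-5p did not overlap on either scale, at 8889 to 9266 RPM in controls against 4575 to 8167 in Tex15-/- testes (log2 fold change -0.34, SE 0.20, edgeR adjusted p = 0.414). The let-7e cluster gave 29927 to 37151 RPM of miR-99b-5p in controls against 33949 to 43997 in Tex15-/- testes, a log2 fold change of 0.35 beside 0.83 for let-7e-5p. miR-125a-5p of the same cluster had a log2 fold change of -0.06 and miR-100-5p, from the let-7a-2 cluster, 0.04. The passenger arms miR-99b-3p, miR-125a-3p, miR-125b-1-3p and miR-125b-2-3p had log2 fold changes of 0.49, 0.54, 0.46 and 0.12. miR-125a-3p was higher in every Tex15-/- library, at 221 to 232 RPM in controls against 257 to 377 in Tex15-/- testes. miR-125b-1-3p was higher in each only after TMM scaling. miR-99a-3p and miR-100-3p were under 1 RPM in each library and were not tested.

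Nearly all reads came from the 5p arm. The 3p names held 0.113%, 0.160% and 0.164% of let-7 reads in controls against 0.124%, 0.382% and 0.173% in Tex15-/- testes (p = 0.4, two-sided exact permutation test). The difference of 0.0802 percentage points was 0.00251 without Tex15-/- replicate 2, and 0.131 without Tex15-/- replicate 1, where the groups did not overlap. The high value in Tex15-/- replicate 2 was mostly let-7d-3p, with 3271 reads. Of the rest, only let-7c-1-3p (mean 27.8 RPM), let-7e-3p (26.5), let-7k (15.97), let-7a-1-3p (15.4) and let-7c-2-3p (10.1) exceeded 10 RPM on average. These levels and shares count only reads listed as mature, and the most frequent form of let-7a-1-3p and let-7c-2-3p was listed elsewhere. With all forms of 20 to 26 nt counted, the 3p share was 0.178%, 0.241% and 0.239% in controls against 0.172%, 0.498% and 0.255% in Tex15-/- testes (p = 0.5, two-sided exact permutation test).

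Several of these low names depend on how a sequence was listed. let-7a-1-3p and let-7c-2-3p have the same mature sequence, and the reads of the full sequence were listed under let-7c-2-3p in 2 libraries and under let-7a-1-3p in the other 4. Neither name can therefore be compared alone. A 16-nt sequence that fits both let-7k and let-7e-5p was listed under let-7k in 4 libraries, where it gave 174 to 540 of the 187 to 584 reads of let-7k, and under let-7e-5p in the other 2.

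Shorter variants were few among the let-7 5p reads listed as mature. Such reads cannot be longer than the annotated 22 nt, so longer reads, described below, are not counted in these length shares. Of the reads listed as mature, 86.3% to 88.6% were 22 nt. The mean length was 21.8 nt ± 0.0173 (SD, n = 3) in controls against 21.8 nt ± 0.0344 (SD, n = 3) in Tex15-/- testes (p = 0.8, two-sided exact permutation test). Of these reads, 99.8% to 99.9% began at the annotated 5′ end. The share cannot count starts before that end, because reads listed as mature are exact parts of the annotated sequence. It shows only that few of the listed reads began later. Reads of 21 nt made up 6.69% to 7.58%, those of 20 nt 1.33% to 1.77% and those of 19 nt 0.563% to 1.05%. An 18-nt form was more frequent than the 19-nt form in every library, with 2.72%, 2.15% and 2.44% in controls against 3.20%, 2.35% and 2.18% in Tex15-/- testes (p = 0.8, two-sided exact permutation test).

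The 18-nt form was a property of some members. It made up 4.98% to 8.56% of let-7d-5p, 5.94% to 7.60% of let-7e-5p, 3.98% to 7.55% of let-7f-5p and 3.85% to 6.80% of let-7g-5p in the 6 libraries. In let-7b-5p it made up 1.21% to 1.86%, in miR-98-5p 0.227% to 0.413% and in let-7i-5p 0.0457% to 0.0880%. Among reads listed as mature, let-7i-5p had the largest share at 22 nt, 96.4% to 98.4%, and let-7e-5p the smallest, 65.9% to 71.1%. A 23-nt form of let-7i-5p with an untemplated A, listed elsewhere, outnumbered its 21-nt form in every library (8862 against 6359 reads in control replicate 1). For let-7a and let-7c the form is the same sequence, shown here because it carries no base that tells the pair apart.
18-nt form of let-7a-5p and let-7c-5p: tgaggtagtaggttgtat

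Its 6083, 35308 and 10474 reads in controls and its 10340 and 12952 reads in Tex15-/- replicates 2 and 3 were listed under let-7c-5p, but its 11085 reads in Tex15-/- replicate 1 under let-7a-5p. That listing alone put the 18-nt share of let-7a-5p at 9.34% in this library and at 0.00519% or less in the others. Summed, let-7a and let-7c had 1.87% to 3.16% of their reads at 18 nt. Sequences that fit several let-7 names made up 0.80% to 1.26% of the reads of the family, and leaving them out changed the log2 fold changes of let-7a-5p and let-7c-5p to 0.34 and 0.71.

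The ends of the reads beyond the annotated sequence required other classes of the tables. All 1071 let-7 entries listed as mature were exact parts of the annotated sequence, and longer reads or reads with added bases were listed mostly as transposable element RNA, a class that allows mismatches, or, for the 5p arm, as hairpin. Reads of 20 to 26 nt that begin with the first 20 nt of a mature sequence were therefore collected whatever their class. Forms that were not listed in any class cannot be counted, and whether the listing differs between names was not tested. Of those from the 5p arm, 86.2% to 89.5% were listed as mature and 7.996% to 11.6% as transposable element RNA. From the 3p arm, only 56.7% to 65.2% were listed as mature and 34.4% to 42.6% as transposable element RNA.

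The difference between the arms lay in a 3′ U. The most frequent form of let-7a-1-3p and let-7c-2-3p was not the annotated sequence but one that ends in a U where the hairpin has another base. The forms below are from the deposited tables, in DNA letters, with a base that the hairpin does not template in capitals. They are shown because the templated ends are alike and the shares of reads with the 3′ U are not.
let-7a-1-3p and let-7c-2-3p, templated: ctatacaatctactgtctttcc
let-7a-1-3p and let-7c-2-3p, with 3′ U: ctatacaatctactgtctttcT
let-7f-2-3p, with 3′ U: ctatacagtctactgtctttcT
let-7c-1-3p, templated: ctgtacaaccttctagctttcc
let-7c-1-3p, with 3′ U: ctgtacaaccttctagctttcT
let-7e-3p, templated: ctatacggcctcctagctttcc
let-7e-3p, with 3′ U: ctatacggcctcctagctttcT

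The form of let-7a-1-3p and let-7c-2-3p with a 3′ U had 299, 3249 and 741 reads in controls against 278, 1023 and 1036 in Tex15-/- testes, and the templated form had 44, 675 and 153 in controls against 57, 127 and 154 in Tex15-/- testes. All reads with an untemplated U together made up 77.4%, 73.7% and 73.8% in controls against 75.0%, 81.5% and 79.1% in Tex15-/- testes. The groups overlapped (p = 0.2, two-sided exact permutation test). let-7b-3p had 60.0% to 78.0% of its reads with an untemplated U, let-7f-1-3p 68.2% to 83.3% and let-7f-2-3p 79.4% to 97.4%, from 15 to 336 reads per library each, so these shares carry a large counting error. These 4 entries are from group II hairpins and were singled out after their values were seen.

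let-7c-1-3p and let-7e-3p, from group I hairpins, had lower shares than these 4. let-7c-1-3p had 10.7%, 6.98% and 4.07% of its reads with an untemplated U in controls against 14.6%, 8.58% and 6.03% in Tex15-/- testes, from 150 to 1117 reads. let-7e-3p had 16.9%, 18.1% and 19.5% in controls against 26.5%, 27.6% and 19.8% in Tex15-/- testes, from 163 to 1446 reads. let-7e-3p was higher in every Tex15-/- library. In 6 of 6 libraries these entries lay below the 4 named before: the lowest of the 4 was 60.0% to 76.5% and the higher of these 2 was 16.9% to 27.6%. let-7a-2-3p, the third of group I, had 1 to 6 reads of this kind in each library and was not assessed. The order does not extend to the rest of group II. let-7i-3p had 0% to 22.2% of its reads with an untemplated U, from 9 to 64 reads per library, and miR-98-3p had 0% in 5 libraries and 20% of 5 reads in Tex15-/- replicate 3. let-7d-3p had 0.410% to 1.21%. The annotated sequences of these 3 end in a U, so a U in place of that last base could not be told apart from the template. let-7g-3p had 2 to 36 reads listed as mature per library and was not assessed.

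**Figure D4:**
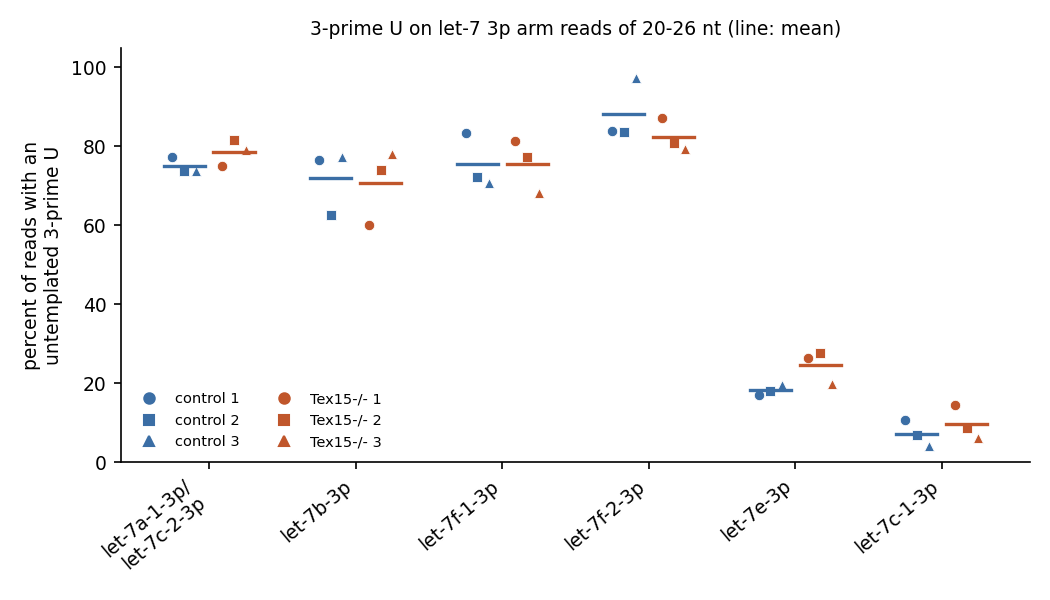
Share of reads with an untemplated 3′ U, in percent, among 3p arm reads of 20 to 26 nt, 1 point per library and a line at the mean of each genotype. The 4 entries on the left lie between 60.0% and 97.4%, and let-7e-3p and let-7c-1-3p on the right between 4.07% and 27.6%.

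Over all 3p reads an untemplated U was found in 33.9%, 33.4% and 31.7% in controls against 25.7%, 24.6% and 31.99% in Tex15-/- testes (p = 0.2, two-sided exact permutation test). let-7d-3p, in which most such tails could not be seen, is counted in this total. Untemplated A was found on 3.64% to 4.94% of 3p reads in controls against 4.71% to 5.96% in Tex15-/- testes.

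On the 5p arm, tails were rarer. An untemplated A was found on 3.83%, 4.10% and 3.48% of reads in controls against 3.53%, 3.35% and 3.60% in Tex15-/- testes (p = 0.3, two-sided exact permutation test), a difference of -0.311 percentage points that was -0.161 without control replicate 2 and -0.473 without control replicate 3, beside a median of 1.81% to 2.41% over 44 other microRNAs. Among the forms listed, let-7g-5p had the most of the abundant members, 6.00% to 9.19%, and let-7f-5p the least, 0.392% to 0.749%. In let-7e, let-7i and miR-98 the base after the annotated end is not a U, so that an added U can be seen. It was found on 7.20% to 7.62% of let-7e-5p in controls against 7.76% to 8.24% in Tex15-/- testes, higher in each, and on 1.82% to 2.24% of let-7i-5p against 1.07% to 1.71%, lower in each. On miR-98-5p it was found on 1.92% to 2.72% over the 6 libraries, and the groups overlapped. Over all let-7 5p reads it was lower in each Tex15-/- library, with means of 0.896% and 0.854% (p = 0.1, two-sided exact permutation test, 0.467 after Benjamini-Hochberg adjustment). That difference of -0.0426 percentage points was mostly Tex15-/- replicate 3 and was -0.00917 without it. The median over the 44 other microRNAs was also lowest in that library, at 1.81% against 2.31% to 2.48% in the others. After the other 6 members of the 5p arm the hairpin templates a U, which hides an added one, and an untemplated U was found on at most 0.0972% of their reads (let-7g-5p).

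Templated reads that run past the annotated 5p end made up 2.53%, 2.65% and 2.59% in controls against 2.91%, 3.92% and 3.17% in Tex15-/- testes, higher in each Tex15-/- library (p = 0.1, two-sided exact permutation test, 0.467 after Benjamini-Hochberg adjustment over 14 end classes). The median of this class over the 44 other microRNAs was lower in each Tex15-/- library, with means of 0.879% and 0.693% (p = 0.1, two-sided exact permutation test). The let-7 difference of 0.741 percentage points was 0.448 without Tex15-/- replicate 2. let-7b-5p had the most in controls, 9.27% to 10.6%, and its share was 9.43% to 10.6% in Tex15-/- testes. let-7f-5p had 2.72% to 3.26% in controls against 4.51%, 10.5% and 3.77% in Tex15-/- testes, the largest value again in replicate 2. Some of these bases are U and may be added or templated, which the reads do not show.

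Outside the family, 185 microRNAs reached 100 RPM. The 5 whose log2 levels followed the summed let-7 5p level most closely over the 6 libraries were miR-28a-3p (Pearson r = 0.93), miR-335-3p (0.91), miR-30b-3p (0.85), miR-370-3p (0.84) and miR-423-5p (0.83). miR-335-3p, for example, had 1139, 1295 and 1412 RPM in controls against 1194, 1994 and 1540 in Tex15-/- testes, highest in the library in which let-7 was highest. The same 6 libraries and a shared total underlie each of these correlations, and they were chosen as the highest of 185.

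MicroRNAs that mark cell types were set beside the let-7 values. The microRNAs miR-143, miR-145a, miR-199a, miR-199b and miR-214, abundant in smooth muscle and mesenchyme, summed to 65235 to 71218 RPM in controls against 39507 to 59948 in Tex15-/- testes, with no overlap and the lowest value in Tex15-/- replicate 2. Both the lack of overlap and the low value of replicate 2 rest on miR-199a-3p and miR-199b-3p. Their levels swung in opposite directions between controls, from 36634 to 1742 RPM and from 1860 to 42829, so neither name can be compared alone. The names of this list did not all have estimates below 0. miR-143-3p had 17307, 12872 and 13921 RPM in controls against 19180, 18102 and 14345 in Tex15-/- testes, a log2 fold change of 0.39. Those of endothelium (miR-126a and miR-126b) summed to 37702 to 47539 and 31435 to 41071, those of blood to 158 to 240 and 125 to 163, and the gonadal microRNA miR-202 to 2351 to 2473 and 1755 to 2523. The germ and pluripotent cell clusters miR-290 to miR-295 and miR-302 to miR-367 summed to 3066 to 3388 in controls against 3089 to 4662 in Tex15-/- testes. Most of that sum was miR-292a-5p, with means of 1681 and 2682, whereas miR-295-3p had means of 137 and 110. Of the 33 tested names of these lists, 0 passed. The part of cell composition in the let-7 differences was not tested.

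In sorted gonocytes, the genotype check came first. Tex15 had 8183, 8315 and 9082 reads in controls against 2338, 1267 and 1310 in the Tex15-/- libraries, among 4893265 to 5697020 reads on genes per library. The log2 fold change was -2.35 (SE 0.23, edgeR adjusted p = 0.0108), lower in 3 of 3 Tex15-/- libraries. The small RNA libraries hold no such check of their labels. The run names in their descriptions use T for controls and C for Tex15-/- testes, the reverse of the letters used for the gonocyte libraries. The genotype labels and the group names inside the small RNA tables match each other and were followed.

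Of 16311 genes tested, 0 (0%) passed an adjusted p of 0.01 in edgeR and 1497 (9.18%) had an unadjusted p under 0.05. DESeq2 called 14 genes. Summed markers of other testis cells stood higher in 2 of the 3 Tex15-/- libraries: 6 mesenchymal markers summed to 59.2 to 73.9 CPM (counts per 1000000 reads on genes, TMM-scaled where the gene was tested) in controls against 59.0, 1744 and 413 in Tex15-/- replicates 1, 2 and 3. The sums of 6 Leydig markers were 20.04 to 61.6 in controls against 36.0, 561 and 176, of 7 Sertoli markers 45.4 to 50.2 and 40.8, 199 and 160, and of 8 endothelial and blood markers 44.3 to 49.6 and 33.5, 187 and 60.7. In replicate 3 the endothelial genes Pecam1 (10.6 CPM, controls 12.7 to 19.7) and Cdh5 (16.6, controls 19.7 to 22.8) were below every control. The remaining genes of that list were above every control there, Csf1r the most (20.02 CPM, controls 4.32 to 6.14). The 10 germ markers summed to 2715 to 2836 in controls against 2590 to 2828 in Tex15-/- libraries, mostly Ddx4, Mael and Piwil2. Of the 9 tested, 2 had estimates above 0, and Dazl (251 to 288 against 203 to 235 CPM) and Nanos3 (2.97 to 4.19 against 1.70 to 2.17) were lower in every Tex15-/- library, with edgeR adjusted p of 0.471 and 0.588. The genotypes did not overlap for 13.2% of all genes tested, and Nanos3 rested on 9 to 23 reads per library. Without Tex15-/- replicate 1, the library with the low marker sums, the number of genes called rose to 388.

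Lin28b, the let-7 repressor that marks early germ cells, was expressed in gonocytes of both genotypes. It had 55.0, 63.2 and 56.3 CPM in controls against 69.5, 36.7 and 46.5 in Tex15-/- libraries. The groups overlapped, with replicate 1 above and replicates 2 and 3 below every control, and the log2 fold change was -0.19 (SE 0.20, edgeR adjusted p = 0.762). Without Tex15-/- replicate 1 the log2 fold change was -0.48 (edgeR adjusted p = 0.0809), and without Tex15-/- replicate 2 it was -0.01. Lin28a had 64.9, 48.9 and 65.9 CPM in controls against 54.1, 38.9 and 49.5 in Tex15-/- libraries, also overlapping (log2 fold change -0.34, SE 0.17, edgeR adjusted p = 0.563, and -0.21 without Tex15-/- replicate 2). The 2 libraries in which Lin28b was below every control were those with high sums of somatic markers, and the part of those cells was not tested. For Lin28a, control replicate 2 was also below Tex15-/- replicate 3.

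The machinery that makes and trims let-7 was measured next, with 24 genes listed and all 24 tested. None passed in edgeR or DESeq2, 1 had an unadjusted p under 0.05 (9.18% of all genes tested did), and the median log2 fold change was 0.00 beside 0.01 over all genes tested, with 12 above 0 and 12 below. The gene with the low p was Tut7, a uridyltransferase of let-7 hairpins, at 67.4, 70.1 and 77.8 CPM in controls against 64.9, 50.2 and 54.6 in Tex15-/- libraries. Its groups did not overlap, as was so for 13.2% of all genes tested, and the log2 fold change was -0.34 (SE 0.13, edgeR adjusted p = 0.479). Tut4 had 148 to 169 CPM in controls against 128 to 163 in Tex15-/- libraries. Tent2, which adds A to microRNAs, had 51.2 to 57.8 and 47.3 to 55.7, and the exonuclease gene Dis3l2 10.4 to 16.6 and 12.1 to 16.4.

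None of the genes of the cleavage steps passed, and all overlapped between genotypes. Mean CPM in control and Tex15-/- libraries were 204 and 218 for the nuclease gene Drosha, 31.4 and 30.0 for its partner Dgcr8, 152 and 155 for the export factor gene Xpo5 and 102 and 117 for Dicer1. Of the DICER1 partners, Tarbp2 had 26.9 and 26.7 and Prkra 10.5 and 10.3. The Argonaute genes Ago1, Ago2, Ago3 and Ago4 had control means of 59.4, 21.5, 62.0 and 21.7 and Tex15-/- means of 63.8, 25.9, 49.7 and 18.02.

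Genes of other proteins that bind or modify let-7 precursors overlapped between genotypes too. Control and Tex15-/- means in CPM were 66.3 and 81.4 for the splicing factor gene Khsrp, 281 and 315 for Hnrnpa1, 15.5 and 17.9 for the RNase gene Zc3h12a, 21.7 and 21.98 for Trim25 and 170 and 174 for Syncrip. They were 57.9 and 64.0 for Msi1, 6.78 and 7.63 for the methyltransferase gene Mettl1 and 49.6 and 42.2 for the RNA editing enzyme gene Adar. The log2 fold changes of these 8 genes lay between -0.24 and 0.30.

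**Figure D5:**
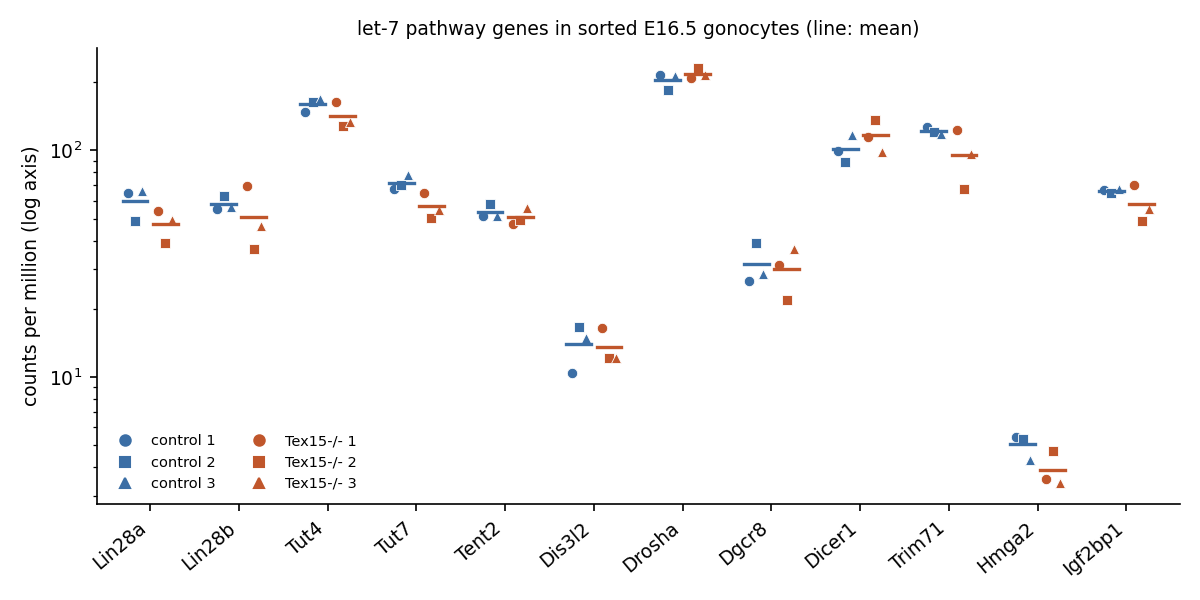
CPM of let-7 pathway and target genes in sorted E16.5 gonocytes, 1 point per library and a line at the mean, on a log axis and not divided by transcript length, so that only libraries of the same gene compare. Lin28a, Lin28b, Trim71 and Tut7 are lowest in Tex15-/- replicate 2, and the genotypes overlap for all plotted genes except Tut7.

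Of 34 genes listed as targets of let-7, 33 were tested and 0 passed in edgeR and DESeq2. Their median log2 fold change was -0.02, with 16 above 0 and 17 below, and 2 had an unadjusted p under 0.05 (9.18% of all genes tested did). The 4 with the smallest p were the cyclin gene Ccnd2, the kinase gene Map4k4, Lin28a and Trim71. Ccnd2 had 17.1, 14.3 and 13.7 CPM in controls against 12.7, 55.7 and 26.8 in Tex15-/- libraries, high where the somatic marker sums were high (log2 fold change 1.08, SE 0.42, edgeR adjusted p = 0.478). It was called without Tex15-/- replicate 1. Map4k4 had 289 to 316 in controls against 311 to 430 in Tex15-/- libraries (log2 fold change 0.29, SE 0.12, edgeR adjusted p = 0.494). Trim71, a let-7 target that encodes a ubiquitin ligase of stem and germ cells, had 127, 121 and 118 in controls against 123, 67.4 and 96.3 in Tex15-/- libraries (log2 fold change -0.35, SE 0.18, edgeR adjusted p = 0.584). Hmga2, a target known for its many let-7 sites, was low in both genotypes, at 4.32 to 5.46 CPM in controls against 3.40 to 4.70 in Tex15-/- libraries.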

How the data were processed

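Small RNA of whole E16.5 testes and RNA-seq of sorted E16.5 gonocytes were analysed, 3 Tex15+/- and 3 Tex15-/- libraries each, grouped by the labels. For small RNA, the authors trimmed reads with cutadapt, collapsed them to distinct sequences, annotated these with Bowtie 1.2.1.1 and deposited a read count per sequence and annotation. Their further column, a constant per library, turns counts into reads per 1000000 mature microRNA reads (RPM). For gonocytes, the authors aligned reads to GRCm38 with HISAT2 and deposited gene counts from HTSeq 0.11.1. Between 61.3% and 67.3% of each gonocyte table lay in 5 rows that name no gene and were left out, and 54723 of 54838 gene identifiers had a symbol. The kit was stranded, and whether genes were counted by strand is not given in the sources used here. Tables of repeat counts and the testis RNA-seq of a later age were not used.

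Each distinct sequence was counted once per name, and counts were summed by mature name. Counts were compared over all names, and over all genes, in R 4.3.3 with edgeR 4.0.16 (TMM, filterByExpr with a minimum count of 10 and total of 15, quasi-likelihood test, Benjamini-Hochberg adjustment, call at an adjusted p under 0.01, the study's threshold). The SE of a log2 fold change was derived from that test, as its absolute value divided by the square root of the F statistic. DESeq2 1.42.0, other scalings and filters, a replicate block and each library left out were alternatives. Chosen after seeing the data were edgeR's newer quasi-likelihood estimate, leaving out sequences shared by several let-7 names, and all forms whatever their annotation. Shares were compared by two-sided exact permutation tests. p-values measure the spread between these libraries, and no molecular identifiers were used, so read counts are not counts of molecules. Tested on simulated data over 581 mature names with a coefficient of variation of 0.2, the fit recovered 83.7% of 98 names changed by a log2 fold change of 1 and 99.0% of 98 changed by 2, with 1 false call. Over 16376 gonocyte genes it recovered 42.4% of 92 genes changed by 1 and 95.7% of 93 changed by 2, with 1 false call. The simulation gave every row the same spread and no library that stands apart, so these percentages do not give the power in the real libraries. In Tex15-/- testes let-7b-5p had a mean of 7887 and an SD of 2351 RPM, and let-7d-3p 297 and 246. Tex15 itself, with a log2 fold change of -2.35, was not called (edgeR adjusted p = 0.0108). Same-numbered libraries were not paired: the correlations of their deviations from the group means over mature names were -0.07, 0.13 and 0.19. All 23 names and their hairpins were matched in RefSeq. Described singly were names with at least 100 RPM, all cluster partners, the 5 microRNAs most like the summed let-7 5p level, the pathway genes, and the 4 targets of smallest p. Members and lists were chosen with earlier results of these data known.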

Additional observations from a re-analysis of the deposited data

How the results depend on the processing

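Of 493 recomputed values over 40 results, 450 were counted as unchanged. Fold changes had to keep their direction and side of the threshold, and counts of calls had to stay equal. For shares, lengths and tails only the direction was compared, so a change in overlap or p did not count. The number of mature names called was 0 in the edgeR fit, 1 with all reads of 18 to 32 nt as library size, 7 without a filter on low counts, 10 with DESeq2, 5 at an adjusted p under 0.05, 1 with edgeR's newer estimate, 1 with all forms whatever their annotation and 0 to 1 with a library left out (1 without Tex15-/- replicate 2). Of let-7 names, 1 was called with DESeq2 and 0 under every other alternative. The number of gonocyte genes called was 488 without a filter, 1 with at least 10 reads in every library, 14 with DESeq2, 3 at an adjusted p under 0.05, 2 with edgeR's newer estimate and 0 to 388 with a library left out (388 without Tex15-/- replicate 1, 5 without replicate 2 and 1 without control replicate 1). Of let-7 pathway and target genes, 1 (Ccnd2) was called without a filter, and 0 to 1 with a library left out. The replicate block left 0 mature names, 0 let-7 names and 0 gonocyte genes called, with a log2 fold change of 1.11 for let-7b-5p and -0.24 for Lin28b. Same-numbered libraries shared only a number: for microRNAs their deviations correlated at -0.07, 0.13 and 0.19, and control replicate 1 correlated best with Tex15-/- replicate 2, while control replicates 2 and 3 correlated best with their own number.

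Directions turned in these cases. The log2 fold change of let-7d-5p was -0.058 with total reads without TMM factors. With a library left out it ranged from -0.13 (without Tex15-/- replicate 3) to 0.26, and that of let-7f-5p from -0.35 to 0.052 (without Tex15-/- replicate 2). Counting each distinct sequence once weighs every form alike whatever its reads, so it does not measure read shares. It turned the difference (Tex15-/- minus control, in percentage points) of the 3p share to -1.43, of the let-7e share to -1.09, of the 22-nt share to 0.338 and of untemplated A on the 5p arm to 0.244, and that of the mean length to 0.0583 nt. Leaving out shared sequences turned that of the 18-nt share to -0.0653. With a library left out, differences ranged from -0.439 to 0.949 for the let-7a share, from -2.80 to 1.39 for the let-7i share, from -0.171 to 0.339 for the 18-nt share, from -0.850 to 0.17 for the 22-nt share and from -0.0204 to 0.00962 nt for the mean length. No sequence was listed under several mature names or with another annotation, so those alternatives gave the values already reported. They could not differ and are among the values counted as unchanged. The cause was not tested, other than that leaving out a library leaves fewer samples. Counting error limits the 3p names under 100 reads per library.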

Other observations

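The last base of let-7 reads varied between libraries. In 22-nt reads whose first 21 bases match, C stood in place of the templated final U in a median of 4.45% to 5.11% over the 9 let-7 members in 5 libraries, and in 2.47% in Tex15-/- replicate 3. Over 25 other microRNAs with U at base 22 the medians were 4.43% to 5.32% in the same 5 libraries and 2.34% in that library. miR-10a-5p, miR-10b-5p, miR-127-3p, miR-148a-3p and miR-543-3p had 0% in every library, and whether such reads went unlisted for these names was not tested. An untemplated G was found on 1.05% of let-7 5p reads in control replicate 2, the deepest library, and on 0.206% to 0.288% in the others.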
